A study of Mus musculus with 6 samples.

Results

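Most of the genes described here encode nuclear-encoded subunits of the mitochondrial respiratory chain and of ATP synthase. They were taken by symbol alone: symbols that open with Nduf, then a, b, c, s or v and a digit, the succinate dehydrogenase genes Sdha, Sdhb, Sdhc and Sdhd, and symbols that open with Uqcr, with Cox4 to Cox8 or with Atp5. That gave 85 of the 18283 genes in the table, with 39 in complex I, 4 in complex II, 8 in complex III, 17 in complex IV and 17 in complex V. Of these, 82 had enough reads to be tested, and Ndufb4b, Cox7b2 and Cox8b did not. The rule also took Ndufa4l2, Cox7a2l and Atp5s, which are not counted as structural subunits. They stay among the subunits in all counts here. The expression of each gene is given as CPM, its reads scaled to the size of the library.

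RNA was sequenced from the cortex of mice with the genotype WT that had received AAV-GFP-GA (n = 3) or AAV-GFP (n = 3), with a labelled time of 5-month for all of them. Both groups therefore carry an adeno-associated viral vector and green fluorescent protein, and differ in the GA cargo. The study's title names that cargo as poly-GA, a dipeptide repeat protein made from the expanded repeat in C9orf72, and places its clearance under TREM2 and the NLRP3 inflammasome. The sources used here give neither the promoter in the vector, nor the site and age of injection, nor the sex of the mice. Nor do the labels say that the 3 libraries of a group are separate animals. The p-values measure only the spread between these libraries, which may in part be technical. AAV-GFP replicate 3 had 1 read from 4 Y-linked genes, against 2219 and 2270 in AAV-GFP replicates 1 and 2. It thus came from another animal than those 2, with the reads of a female against those of males.

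The respiratory chain passes electrons from NADH, through complex I, or from succinate, through complex II, to ubiquinone, then through complex III and cytochrome c to complex IV, which reduces oxygen. Complexes I, III and IV pump protons across the inner mitochondrial membrane, and complex V, the ATP synthase, uses the gradient to make ATP. Neurons depend on this pathway for most of their ATP, and the nuclear genome encodes most of its subunits, including all of complex II.

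The libraries held between 16748748 and 17576002 reads assigned to genes. The first principal component of all genes, with 32.5% of the variance, set AAV-GFP replicates 1 and 2 apart from the other 4 libraries, and AAV-GFP replicate 3 had 1 read from 4 Y-linked genes, where the other libraries had 2018 to 2270. Markers of intestinal epithelium, a tissue foreign to cortex, split the libraries in the same way. Their summed level over 12 genes was 7.96, 8.06 and 11.8 CPM with AAV-GFP-GA, against 2.27, 2.51 and 8.31 CPM with AAV-GFP. Among these genes Cdx1 was at 0 in all 6 libraries, and 6 of the 12 passed the filter. Of markers of other brain cells and regions, 8 of 8 for choroid plexus were below 0 on the log2 fold change scale, with summed levels of 384 to 1209 CPM with AAV-GFP-GA and 674 to 1995 CPM with AAV-GFP, and 9 of 9 for striatum were below 0, with 1134 to 1364 CPM and 863 to 1793 CPM. Above 0 were 7 of 8 for endothelium, with 205 to 241 CPM with AAV-GFP-GA and 167 to 198 CPM with AAV-GFP. So were 7 of 8 tested for mural cells, with 232 to 274 CPM and 223 to 244 CPM in the same order of groups. Microglia had 6 of 8 above 0, with 450.5 to 478 CPM and 414 to 442 CPM. Oligodendrocytes also had 6 of 8, with 6270 to 6850 CPM and 6414 to 6795 CPM. Astrocytes had 5 of 8, with 3877 to 4527 CPM and 3900 to 4304 CPM, and neurons 7 of 14. Of all tested genes, 51.4% were below 0. The part of these cells and regions in the subunits' values was not tested. All 3 AAV-GFP-GA libraries lie on 1 side of the split, so leading results are also given with a term for the library sets. It compares AAV-GFP-GA with AAV-GFP replicate 3 alone, the library with 1 Y-linked read. The sets follow a split seen in these same data, so genes set apart in AAV-GFP replicates 1 and 2 shift with the term by construction. The GA cargo, the library set and the difference in Y-linked reads cannot be told apart with it.

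None of the 82 subunit transcripts passed the threshold between cortex with AAV-GFP-GA and cortex with AAV-GFP. By edgeR's quasi-likelihood test with Benjamini-Hochberg adjustment over 14324 genes, 0 subunits had an adjusted p under 0.05, where 0.0209% of all tested genes did, and the smallest adjusted p of a subunit was 0.742. DESeq2 and limma-voom also called 0. At an unadjusted p under 0.05 in edgeR, 5 subunits were lower with AAV-GFP-GA, or 6.10% of those tested against 3.45% of all genes, and 0 were higher, against 3.19% of all genes. These 5 were Ndufa5, Ndufc1 and Ndufa1 of complex I and Atp5h and Atp5k of complex V, of which Ndufa1 is named here after its values were seen. At the same limit DESeq2 had 7 lower, or 8.54% of subunits against 2.09% of all genes, and limma-voom 5, or 6.10% against 3.15%.

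For most subunits the measurement was tight enough to bound the difference. The 95% confidence interval of the fold change lay within 1.25-fold in either direction for 63 of 82 subunits. It lay within 1.5-fold for 75 of 82 and within 2-fold for 81 of 82. Over all 14324 tested genes the counts were 7833, 11674 and 13405. Over the 6 libraries the median coefficient of variation of a subunit was 7.07%, against 8.37% over all tested genes. Sdha, the catalytic flavoprotein of complex II, varied least, with 1.97%.

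More subunits leaned lower than higher. The log2 fold change of AAV-GFP-GA over AAV-GFP was below 0 for 54 of 82 subunits, or 65.9%, against 51.4% of all tested genes. Its median was -0.04 over all subunits, -0.04 in complex I, -0.01 in complex II, -0.02 in complex III, -0.04 in complex IV and -0.05 in complex V, against -0.004 over all genes. In 4 subunits, Ndufa5, Cox7a2, Atp5k and Atp5s, all AAV-GFP-GA libraries lay below all AAV-GFP libraries, or 4.88% of those tested, against 5.79% of all genes. In 0 subunits did they all lie above, against 6.09% of all genes.

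**Figure D1:**
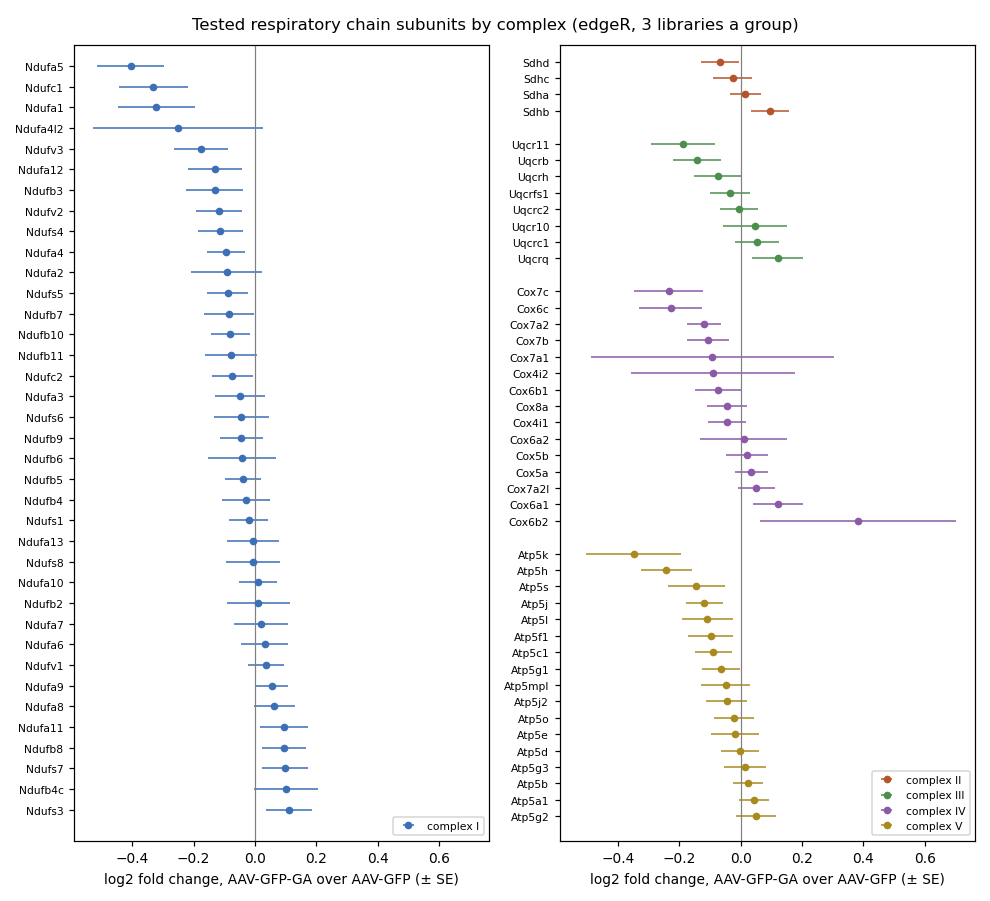
Log2 fold change of AAV-GFP-GA over AAV-GFP for 81 of the 82 tested subunits, sorted within each complex, with complex I on the left and complexes II to V on the right. Points are edgeR estimates and bars are ± SE. Ndufa5 lies lowest at -0.40, and Cox6b2, the highest at 0.38, has one of the widest bars.

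Complex I oxidises NADH in a peripheral arm and pumps protons in a membrane arm. Ndufa5 encodes an accessory subunit of the peripheral arm (Entrez gene 68202, chromosome 6, 24518662 to 24527690, mm10). It had 37.4, 38.4 and 33.5 CPM with AAV-GFP-GA, against 52.8, 52.3 and 39.7 CPM with AAV-GFP. The groups did not overlap, but AAV-GFP replicate 3 lay nearer to the AAV-GFP-GA libraries than to the other AAV-GFP libraries. Ndufa5 averaged 36.4 ± 2.59 CPM with AAV-GFP-GA and 48.3 ± 7.46 CPM with AAV-GFP (SD, n = 3 each). This is -0.40 ± 0.11 (SE) on the log2 fold change scale, bounded at 95% confidence by -0.65 and -0.16, at an edgeR adjusted p of 0.742.

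Ndufc1 and Ndufa1 encode small accessory subunits of the membrane arm, and Ndufa1 is X-linked. Ndufc1 (Entrez gene 66377, chromosome 3, 51405479 to 51408955) had 31.8, 27.5 and 37.7 CPM with AAV-GFP-GA, against 41.6, 43.7 and 36.7 CPM with AAV-GFP. AAV-GFP-GA replicate 3 lay above AAV-GFP replicate 3, so the groups overlapped. Ndufa1 (Entrez gene 54405, chromosome X, 37187588 to 37191238) had 12.1, 12.9 and 10.04 CPM with AAV-GFP-GA, against 14.9, 16.2 and 12.7 CPM with AAV-GFP, with an overlap at AAV-GFP-GA replicate 2. The log2 fold changes were -0.33 ± 0.11 for Ndufc1 and -0.32 ± 0.12 for Ndufa1 (SE), with an adjusted p of 0.742 by edgeR for both. The other X-linked subunits, Ndufb11 and Cox7b, had -0.08 ± 0.08 and -0.11 ± 0.07, and in AAV-GFP replicate 3, the library with 1 Y-linked read, their CPM of 64.3 and 104 lay within the range of the other libraries.

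Atp5h and Atp5k belong to complex V. Atp5h encodes subunit d of the peripheral stalk, which holds the catalytic head in place (Entrez gene 71679, chromosome 11, 115415691 to 115419919). It had 181, 156 and 179 CPM with AAV-GFP-GA, against 217, 212 and 181 CPM with AAV-GFP. AAV-GFP replicate 3 was level with the upper AAV-GFP-GA libraries. Atp5k encodes subunit e, which sits in the membrane and takes part in forming ATP synthase dimers (Entrez gene 11958, chromosome 5, 108433246 to 108434399). It had 14.7, 14.7 and 14.5 CPM with AAV-GFP-GA, against 17.1, 24.1 and 14.8 CPM with AAV-GFP. Its groups were separated by a narrow margin at AAV-GFP replicate 3, while AAV-GFP replicate 2 stood well above the rest. The log2 fold changes were -0.24 ± 0.08 for Atp5h and -0.35 ± 0.15 for Atp5k (SE), with an adjusted p of 0.742 and 0.746 by edgeR.

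The high values came from the same 2 AAV-GFP libraries. For all 5 subunits, AAV-GFP replicates 1 and 2 lay above each of the other 4 libraries. A term that sets those 2 libraries apart makes such differences smaller by construction. With the library set term the log2 fold changes were -0.12 ± 0.09 for Ndufa5, -0.18 ± 0.14 for Ndufc1 and -0.12 ± 0.15 for Ndufa1 (SE). Those of Atp5h and Atp5k were -0.07 ± 0.09 and -0.01 ± 0.17. Without AAV-GFP replicate 3, which stands apart in its Y-linked reads, Ndufa5 and Cox7c passed as lower, 2 of 82 subunits, where 0.236% of all genes passed as lower, and 0 passed as higher, where 0.263% of all genes did. In that fit edgeR gave Ndufa5 -0.53 ± 0.07 with adjusted p = 0.0296, and Cox7c -0.37 ± 0.06 with adjusted p = 0.0477, as log2 fold change ± SE. The calls of all genes went up as well in that fit, to 72 against 3 with all libraries. The count of subunits lower at an unadjusted p under 0.05 was then 18, or 22.0% of subunits, where 10.3% of all genes were lower. Without AAV-GFP replicate 2 it was 1, or 1.22% against 1.78% of all genes, and without AAV-GFP-GA replicate 1 it was 8, or 9.76% against 2.07%. It was 3, or 3.66%, when AAV-GFP-GA replicate 2 was left out, against 2.4% of all genes, when replicate 3 of that group was, against 2.95%, and when AAV-GFP replicate 1 was, against 2.78%.

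**Figure D2:**
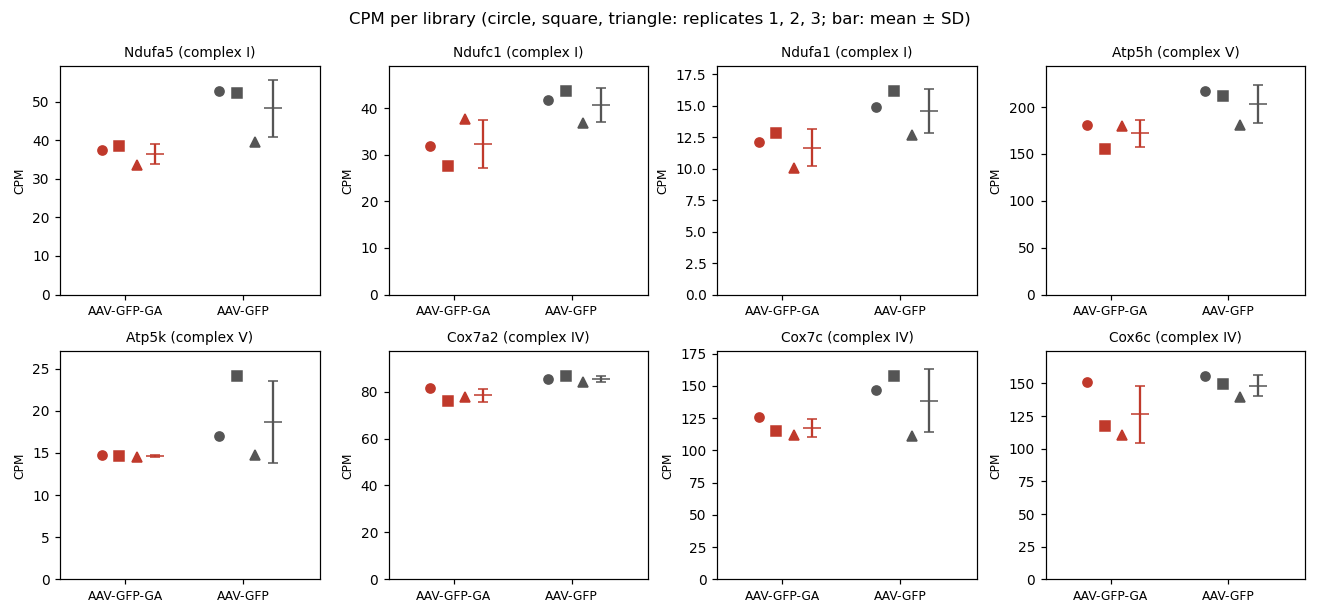
CPM per library of the 5 subunits lower at an unadjusted p under 0.05 and of Cox7a2, Cox7c and Cox6c, with AAV-GFP-GA in red and AAV-GFP in grey, a circle, a square and a triangle for replicates 1, 2 and 3, and bars for the mean ± SD of 3 libraries. The triangle of AAV-GFP lies close to the AAV-GFP-GA points for Ndufa5 (39.7 CPM), Atp5h (181 CPM), Atp5k (14.8 CPM) and Cox7c (111 CPM).

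Genes of the respiratory chain are known targets of NRF1, GABPA (also called NRF2) and YY1, transcription factors that bind near the start of many nuclear genes for mitochondrial proteins. RefSeq promoters of build GRCm38.p6, 250 bases before to 50 bases after the start, were matched for 69 of the 85 subunits. Both strands were searched for the NRF1 motif, which is GCGCA and GCGC with 1 base of any kind between them,, the GABPA motif CCGGAAG, the YY1 motif AAGATGG and the TATA motif TATAAA. The end of CCGGAAG and the opening of AAGATGG share letters, so matches of GABPA and YY1 can overlap. The NRF1 motif was in 17 of 69 subunit promoters, or 24.6%, against 10.5% of 11292 other tested genes and 5.19% of all 27025 genes in the promoter table. By complex it was in 7 of 33 promoters of complex I, 2 of 3 of complex II, 1 of 5 of complex III, 1 of 13 of complex IV and 6 of 15 of complex V. The GABPA motif was in 23.2% of subunit promoters against 18.1% of other tested genes and 9.93% of all genes, the YY1 motif in 15.9% against 7.88% and 7.28%, and the TATA motif in 10.1% against 8.90% and 15.7%. GC content had a median of 57.3% over subunit promoters, 60.7% over other tested genes and 52.8% over all genes.

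Of the 5 subunits that were lowest by unadjusted p, Ndufa5, Atp5h and Atp5k held the NRF1 motif, Atp5h and Atp5k the GABPA motif, and Ndufc1 the YY1 motif, while Ndufa1 held none of the 4 motifs. The 250 bases before the start are printed for Ndufa5, Atp5h and Atp5k because they hold a match, and for Ndufc1 because no match falls in that stretch. All 4 genes lie on the minus strand, and the sequences read 5′ to 3′ towards the gene. The GABPA match of Atp5k and the YY1 match of Ndufc1 are not in the printed stretch. Capitals mark NRF1 matches and, in Atp5h only, a GABPA match read on the other strand as CTTCCGG. The windows are chr6:24527691-24527940 for Ndufa5, which has 2 promoters in the table, chr3:51408956-51409205 for Ndufc1, chr11:115419920-115420169 for Atp5h and chr5:108434400-108434649 for Atp5k.
Ndufa5: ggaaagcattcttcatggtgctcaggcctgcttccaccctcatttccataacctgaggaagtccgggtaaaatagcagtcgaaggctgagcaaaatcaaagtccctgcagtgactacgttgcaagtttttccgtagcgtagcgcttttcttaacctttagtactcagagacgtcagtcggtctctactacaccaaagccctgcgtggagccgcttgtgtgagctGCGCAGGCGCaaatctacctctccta
Ndufc1: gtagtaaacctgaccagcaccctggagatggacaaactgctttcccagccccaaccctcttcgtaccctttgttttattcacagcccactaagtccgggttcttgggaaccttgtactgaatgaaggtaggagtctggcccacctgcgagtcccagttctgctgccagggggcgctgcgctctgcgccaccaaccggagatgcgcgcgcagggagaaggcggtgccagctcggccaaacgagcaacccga
Atp5h: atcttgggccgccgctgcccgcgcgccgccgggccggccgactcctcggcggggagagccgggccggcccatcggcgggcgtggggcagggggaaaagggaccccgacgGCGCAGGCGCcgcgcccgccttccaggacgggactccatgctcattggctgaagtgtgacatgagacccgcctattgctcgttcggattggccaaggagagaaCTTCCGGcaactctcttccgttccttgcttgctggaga
Atp5k: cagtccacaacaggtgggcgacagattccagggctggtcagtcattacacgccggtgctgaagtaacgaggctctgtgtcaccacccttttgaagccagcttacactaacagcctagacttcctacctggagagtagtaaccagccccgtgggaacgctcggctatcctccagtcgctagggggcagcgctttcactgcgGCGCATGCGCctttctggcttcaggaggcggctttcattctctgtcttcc
The NRF1 match runs from 26 to 17 bases before the start in Ndufa5, from 141 to 132 in Atp5h and from 50 to 41 in Atp5k, and the GABPA match in Atp5h from 38 to 32. A match of letters is a description of the sequence and does not show binding.

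The catalytic core of complex I showed small differences of either sign. Ndufv1, which binds NADH and the flavin, had a log2 fold change of 0.04 ± 0.06, and Ndufs1, which carries iron-sulphur clusters, had -0.02 ± 0.06 (SE). Ndufs3, a core subunit of the peripheral arm, had the smallest p-value among complex I subunits above 0. It had 95.6, 85.8 and 84.3 CPM with AAV-GFP-GA, against 76.0, 80.5 and 89.7 CPM with AAV-GFP. AAV-GFP replicate 3 again lay among the AAV-GFP-GA libraries, so the groups overlapped. Ndufs3 was at 0.11 ± 0.08 as log2 fold change ± SE (edgeR adjusted p = 0.770). The library set term moved it to -0.02 ± 0.08. Ndufa4, which is named for complex I but is now counted to complex IV, had the most CPM under a complex I name, with 207 ± 10.7 with AAV-GFP-GA and 221 ± 10.5 with AAV-GFP (SD, n = 3 each).

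Complex II oxidises succinate and has no subunit encoded by mitochondrial DNA. Sdha had 384, 375 and 364 CPM with AAV-GFP-GA, against 366, 376 and 369 CPM with AAV-GFP, so the groups overlapped fully. Its fold change was bounded between 0.934-fold and 1.09-fold at 95% confidence (log2 fold change 0.01 ± 0.05, SE). Sdhb, the iron-sulphur subunit, had 106, 98.9 and 97.2 CPM with AAV-GFP-GA, against 88.5, 96.2 and 97.9 CPM with AAV-GFP. It had a log2 fold change of 0.09 ± 0.06, and the membrane anchors Sdhc and Sdhd had -0.03 ± 0.07 and -0.07 ± 0.06 (SE). The 95% intervals of all 4 lay within 1.25-fold.

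Complex III passes electrons from ubiquinol to cytochrome c. Its core proteins Uqcrc1 and Uqcrc2 had log2 fold changes of 0.05 ± 0.07 and -0.01 ± 0.06, and Uqcrfs1, the Rieske iron-sulphur protein, had -0.04 ± 0.07 (SE). Among the accessory subunits, Uqcr11 and Uqcrb had the smallest p-values below 0 and Uqcrq above 0. Uqcr11 had 39.3, 32.9 and 29.2 CPM with AAV-GFP-GA, against 40.0, 39.9 and 35.6 CPM with AAV-GFP, and overlapped at AAV-GFP-GA replicate 1. Uqcrb had 88.9, 85.7 and 92.3 CPM with AAV-GFP-GA, against 92.3, 111 and 91.6 CPM with AAV-GFP. Their log2 fold changes were -0.19 ± 0.11 and -0.14 ± 0.08, with an adjusted p of 0.751 each by edgeR. Uqcrq, another small subunit, was at 71.5 ± 5.47 CPM with AAV-GFP-GA and 65.7 ± 6.38 CPM with AAV-GFP (SD, n = 3 each), with AAV-GFP replicates 1 and 2 the lowest of the 6 libraries. Its log2 fold change was 0.12 ± 0.08, and the library set term turned the sign, to -0.03 ± 0.09.

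Complex IV, cytochrome c oxidase, has a catalytic core from mitochondrial DNA and a ring of nuclear-encoded subunits. Mitochondrial DNA genes were not analysed here. Cox7a2 had 81.5, 76.1 and 77.8 CPM with AAV-GFP-GA, against 85.4, 86.7 and 83.9 CPM with AAV-GFP. All AAV-GFP-GA libraries lay below all AAV-GFP libraries, by a small step. Cox7a2 had a log2 fold change of -0.12 ± 0.06 (SE, edgeR adjusted p = 0.746). The library set term left it at -0.10 ± 0.07.

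Cox6c and Cox7c are further nuclear-encoded subunits of complex IV. Cox6c had 151, 118 and 111 CPM with AAV-GFP-GA, against 156, 149 and 139.7 CPM with AAV-GFP. AAV-GFP-GA replicate 1 lay among the AAV-GFP libraries. Without it the log2 fold change was -0.38 ± 0.07, against -0.23 ± 0.10 with all libraries, and the adjusted p by edgeR was 0.654 against 0.746. Cox7c had 125, 115 and 112 CPM with AAV-GFP-GA, against 147, 158 and 111 CPM with AAV-GFP, so AAV-GFP replicate 3 was the lowest of all 6. Its log2 fold change was -0.24 ± 0.11, and with the library set term it was 0.08 ± 0.08. Cox6a1 had 297, 249 and 266 CPM with AAV-GFP-GA, against 239.9, 232 and 274 CPM with AAV-GFP, so the groups overlapped at AAV-GFP replicate 3. Its difference was 0.12 ± 0.08 as log2 fold change ± SE (edgeR adjusted p = 0.766), and the library set term turned the sign, to -0.02 ± 0.09. The main forms of subunits 4 and 8, Cox4i1 and Cox8a, had -0.04 ± 0.06 each.

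Several subunits of complex IV come in isoforms, and the cortex used the widely expressed one in every library. Cox4i2, an isoform known from lung and hypoxia, made up 0.421% ± 0.0256 of the Cox4i1 and Cox4i2 reads with AAV-GFP-GA and 0.432% ± 0.0742 with AAV-GFP (SD, n = 3 each). The muscle isoform Cox6a2 made up 2.74% ± 0.411 of the Cox6a1 and Cox6a2 reads with AAV-GFP-GA and 2.93% ± 0.203 with AAV-GFP. Cox7a1, also of muscle, made up 0.796% ± 0.0931 with AAV-GFP-GA and 0.780% ± 0.345 with AAV-GFP, and the testis isoform Cox6b2 made up 0.934% ± 0.243 and 0.682% ± 0.168. Ndufa4l2, the hypoxia-induced relative of Ndufa4, made up 1.26% ± 0.382 with AAV-GFP-GA and 1.40% ± 0.534 with AAV-GFP. Over 10 such shares the exact two-sided permutation test, whose smallest possible p here is 0.1, gave Benjamini-Hochberg adjusted p-values from 0.5 up.

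The genes under the filter were at a few reads. Cox7b2, an isoform of testis, had 1, 0 and 1 reads with AAV-GFP-GA, against 2 in each AAV-GFP library. Cox8b, of muscle, had 3, 6 and 0 reads with AAV-GFP-GA, against 19, 2 and 7 with AAV-GFP. Ndufb4b, a near copy of Ndufb4 on another chromosome, was assigned 7.57, 0 and 0 reads with AAV-GFP-GA, against 4.46, 12.33 and 2.06 with AAV-GFP. RSEM divides reads between sequences that match, which gives values that are not whole. Ndufb4, Ndufb4b, Ndufb4c, Ndufa13 and Uqcrc2 had such values, so the split between Ndufb4 and its copies is uncertain. Ndufb4 itself had a log2 fold change of -0.03 ± 0.08 and Ndufb4c 0.10 ± 0.10.

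ATP synthase held the most abundant transcripts of the family. Atp5b, the catalytic beta subunit, had 1256, 1166 and 1188 CPM with AAV-GFP-GA, against 1169.5, 1189 and 1191 CPM with AAV-GFP. Atp5a1, the alpha subunit, had 868, 827 and 828 CPM with AAV-GFP-GA, against 816, 830.1 and 803 CPM with AAV-GFP. The groups overlapped for both. On the log2 fold change scale Atp5b was at 0.02 ± 0.05 and Atp5a1 at 0.04 ± 0.05, and 95% confidence bounded them between 0.944-fold and 1.10-fold and between 0.956-fold and 1.11-fold. Of subunits named after their values were seen, the gamma subunit Atp5c1, which turns inside the head, had -0.09 ± 0.06. From the peripheral stalk, Atp5f1, Atp5j and Atp5o had -0.10 ± 0.07, -0.12 ± 0.06 and -0.02 ± 0.07 beside the -0.24 ± 0.08 of Atp5h. In complex V 13 of 17 subunits were below 0, and 11 of 17 with the library set term. Of all tested genes 51.4% were below 0, and 50% with the term.

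Subunit c forms the ring in the membrane that turns as protons pass. It is encoded by Atp5g1, Atp5g2 and Atp5g3, which carry different import sequences and the same mature protein. Over the last 75 codons of the coding sequence, all 75 encoded the same amino acid in each pair of genes. Their bases differed at 57 of 225 positions, 52 of them at the last position of a codon. A stretch of 75 bases from this region is printed because it shows how reads of the 3 genes can be told apart. Capitals mark the 18 bases at which at least 1 gene differs from another, all at the last position of a codon.
Atp5g1: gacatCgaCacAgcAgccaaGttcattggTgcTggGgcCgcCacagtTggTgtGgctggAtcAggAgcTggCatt
Atp5g2: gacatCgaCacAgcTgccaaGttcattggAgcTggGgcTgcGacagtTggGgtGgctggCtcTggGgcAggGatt
Atp5g3: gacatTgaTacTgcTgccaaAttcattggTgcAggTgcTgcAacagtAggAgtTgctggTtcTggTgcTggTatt
The longest run of identical bases within those 75 codons was 20 between Atp5g1 and Atp5g2, 11 between Atp5g1 and Atp5g3 and 8 between Atp5g2 and Atp5g3, and the values of all 3 genes were whole numbers of reads in all libraries.

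Atp5g1 was the most used of the subunit c genes by CPM. It made up 42.3%, 41.9% and 42.2% of their summed CPM with AAV-GFP-GA, against 44.2%, 44.5% and 42.5% with AAV-GFP. The groups did not overlap, and AAV-GFP replicate 3 was again the nearest to the AAV-GFP-GA libraries. The share was 42.1% ± 0.170 with AAV-GFP-GA and 43.7% ± 1.08 with AAV-GFP (SD, n = 3 each), with an exact two-sided permutation p of 0.1, the smallest the design allows, and 0.5 after Benjamini-Hochberg adjustment over the 10 shares. Atp5g2 made up 26.8% ± 0.675 and 25.7% ± 1.69, and Atp5g3 31.1% ± 0.625 and 30.6% ± 0.677, in the same order of groups. Per kilobase of transcript, Atp5g1 was at 208 CPM with AAV-GFP-GA and 217 CPM with AAV-GFP, Atp5g2 at 108 and 104 CPM and Atp5g3 at 128 and 127 CPM.

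Per kilobase of transcript the most abundant subunits were Atp5b, with 628 CPM with AAV-GFP-GA and 618 CPM with AAV-GFP, and Cox8a, with 623 and 642 CPM. Cox6a1 with 474 and 436 CPM and Cox4i1 with 399 and 411 CPM came next. Among complex I names Ndufa4 led with 339 and 362 CPM, among complex III Uqcrb with 166 and 184 CPM, and among complex II Sdha with 129 and 128 CPM. At the low end of the tested genes were Cox7a1 with 1.60 and 1.71 CPM and Cox4i2 with 1.73 and 1.84 CPM.

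Summed over all 85 genes, the subunits made up 9891, 9094 and 9139 CPM with AAV-GFP-GA, against 9441, 9731 and 9414 CPM with AAV-GFP. The AAV-GFP-GA libraries held both the highest and the lowest sums. The mean was 9375 ± 448 CPM with AAV-GFP-GA and 9529 ± 176 CPM with AAV-GFP (SD, n = 3 each), so that AAV-GFP-GA was lower by 1.62% of the AAV-GFP mean. That difference is smaller than the spread between AAV-GFP-GA libraries. By complex, the mean difference was -2.08% in complex I, 0.990% in complex II, -0.720% in complex III, -2.91% in complex IV and -1.30% in complex V. Without AAV-GFP-GA replicate 1 the sum over all subunits was lower by 4.21%, and without AAV-GFP-GA replicate 2 by 0.149%. In bulk tissue a lower level can mean fewer cells of a type or less RNA per cell, and these cannot be told apart. Summed neuron markers, over 14 genes, were between 15909 and 16982 CPM with AAV-GFP-GA and between 15839 and 16318 CPM with AAV-GFP, with a median log2 fold change of 0.003.

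**Figure D3:**
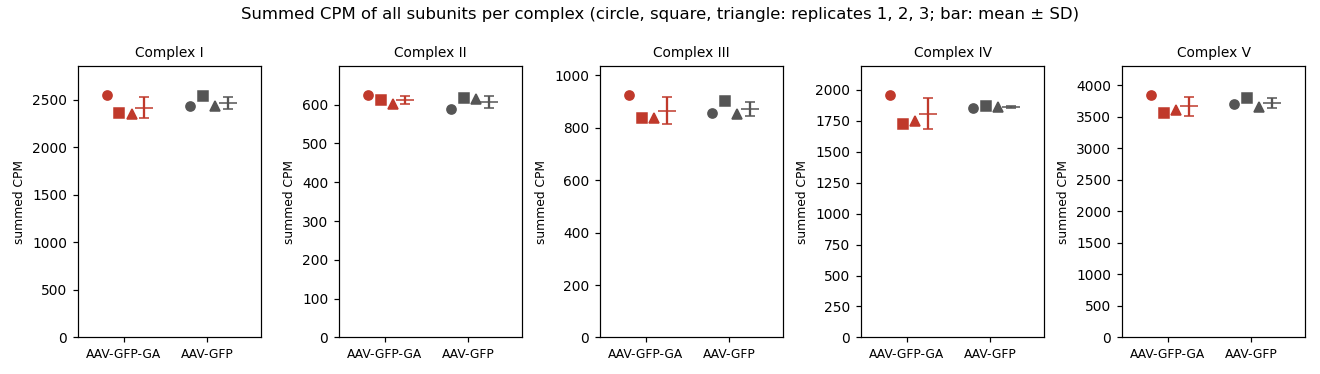
Summed CPM of all subunits of each complex in each library, with AAV-GFP-GA in red and AAV-GFP in grey, a circle, a square and a triangle for replicates 1, 2 and 3, and bars for the mean ± SD of 3 libraries. AAV-GFP-GA replicate 1 is the highest AAV-GFP-GA library in each complex, and in complex V it had 3842 CPM, against 3561 and 3609 CPM in the other AAV-GFP-GA libraries.

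Many subunits moved together across the AAV-GFP-GA libraries, and among the AAV-GFP libraries mainly in replicate 2. AAV-GFP-GA replicate 1 was the highest of the 6 libraries for 34 of 82 subunits, or 41.5%, against 14.6% of all tested genes. AAV-GFP replicate 2 was the highest for 27, or 32.9%, against 21.4% of all genes. AAV-GFP-GA replicates 2 and 3 were the lowest for 23 and 30, or 28% and 36.6%, against 13.4% and 15.3% of all genes. AAV-GFP replicate 1 was the highest for 12 and the lowest for 17, or 14.6% and 20.7%, against 17.4% and 17% of all genes. AAV-GFP replicate 3 was the highest for 7 and the lowest for 7, or 8.54% each, against 19% of all genes each. As a median over subunits, the deviation of log2 CPM from the gene's own mean was 0.07, -0.04 and -0.06 in the AAV-GFP-GA libraries, against -0.001, 0.05 and -0.002 in the AAV-GFP libraries. The spread within AAV-GFP-GA was thus wider than the difference between the groups. Complex II went against this, with medians of -0.003, 0.004 and -0.0005 with AAV-GFP-GA and -0.06, 0.02 and 0.02 with AAV-GFP.

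A second pattern followed the library sets. AAV-GFP replicates 1 and 2 both lay above all other libraries for 21 subunits, or 25.6% against 16.7% of all genes, and both below them for 9, or 11.0% against 15.3%. Beside the 5 subunits with the lowest p-values, the 21 included Cox7a2, Uqcrb and Uqcr11. They also included, as named after their values were seen, Cox7c, Ndufs4, Ndufs5, Atp5c1, Atp5f1 and Atp5j. The 9 included the complex I core subunits Ndufs3 and Ndufs7, the accessory subunits Ndufa8 and Ndufa11, and Sdhb, Uqcrq, Cox6a1 and Atp5g2. With the library set term the median log2 fold change over all subunits was -0.02, and 48 of 82 were below 0, where 50% of all genes were. In that fit 0 passed by edgeR, where 0.0628% of all genes did. At an unadjusted p under 0.05, 1 was lower, Ndufa4l2, against 2.81% of all genes, and 0 were higher, against 3.8% of all genes. Ndufa4l2 had 2.52, 3.33 and 2.02 CPM with AAV-GFP-GA, against 2.45, 2.51 and 4.39 CPM with AAV-GFP, and its value there rests on AAV-GFP replicate 3.

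**Figure D4:**
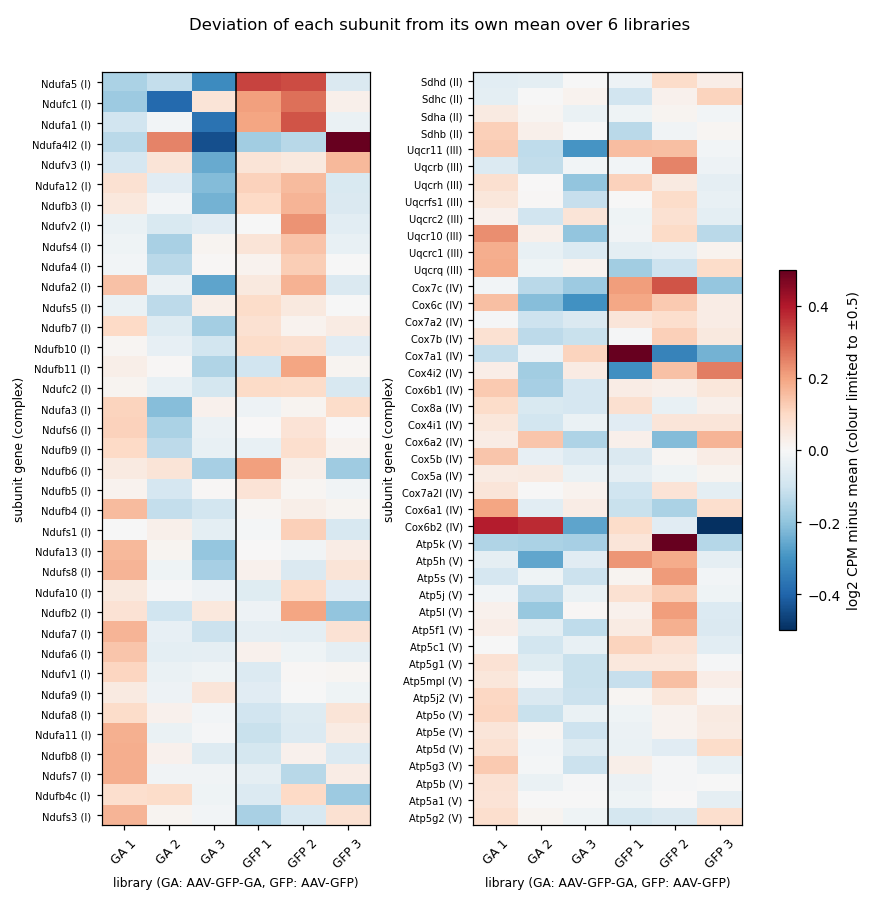
Deviation of log2 CPM from the gene's mean over 6 libraries for 81 of the 82 tested subunits (rows, with the complex in brackets) in each library (columns, AAV-GFP-GA left of the line and AAV-GFP right of it), red above and blue below, with colours limited to ±0.5. AAV-GFP-GA replicate 1 is red for most rows and AAV-GFP-GA replicate 3 blue, with medians of 0.07 and -0.06, and the top rows of complex I are red in AAV-GFP replicates 1 and 2.

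Transcript length moved with these deviations. Most subunits have short transcripts, with a median of 745 bases against 3016 over all tested genes that have a length. Over the 41 subunits up to 745 bases the median log2 fold change was -0.06, and 29 lay below 0, and the 40 longer ones had -0.02, with 25 below 0. Other tested genes up to that length, 270 of them, had a median of -0.06, with 175 below 0, and the 13766 longer ones had -0.002. The medians of the short genes by library were 0.05, -0.05 and -0.07 with AAV-GFP-GA and 0.02, 0.05 and 0.02 with AAV-GFP, beside 0.07, -0.06 and -0.08 with AAV-GFP-GA and 0.03, 0.06 and -0.003 with AAV-GFP for the shorter subunits. Across 81 subunits, which share the same 6 libraries, Spearman's rho between the log2 fold change and the length was 0.252, against 0.0301 across 14117 genes. Cytosolic ribosomal proteins, which also have short transcripts, had medians of 0.06, -0.05 and -0.04 with AAV-GFP-GA and -0.01, 0.05 and -0.01 with AAV-GFP. Of their 80 tested genes 0 passed. At an unadjusted p under 0.05 by edgeR 4 were higher and 6 lower, where 3.19% of all genes were higher and 3.45% lower. The part of transcript length in the subunits' differences was not tested.

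**Figure D5:**
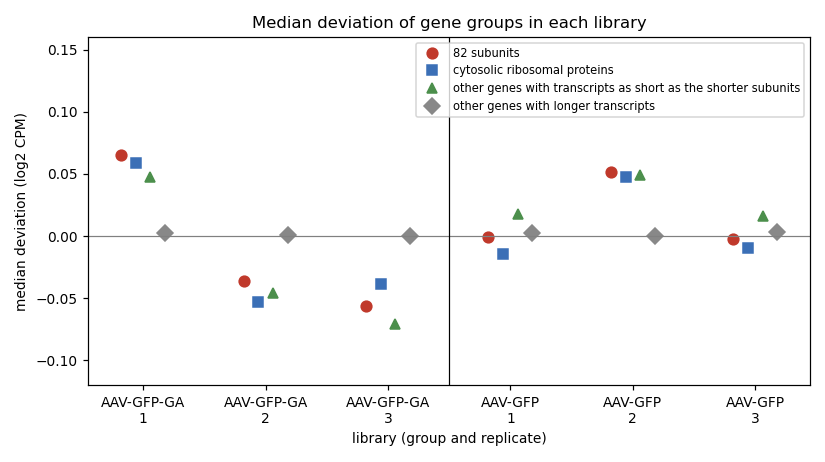
Median deviation of log2 CPM in each library for the 82 subunits, cytosolic ribosomal proteins, other tested genes with transcripts as short as the shorter subunits, and other genes with longer transcripts, with AAV-GFP-GA on the left. The first 3 sets go up and down together, with the subunits at 0.07, -0.04 and -0.06 in AAV-GFP-GA libraries, while longer genes stay near 0.

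Other genes of mitochondrial energy metabolism did not pass either. Of 44 assembly factors, which build the complexes, 0 passed, and the median log2 fold change was -0.02. At an unadjusted p under 0.05 by edgeR, 3 were lower and 0 higher, where 3.45% of all genes were lower and 3.19% higher. Those 3 were Cox16 and Cox17, which act in the assembly of complex IV, and Ndufaf4, which acts in that of complex I. Cox16 averaged 13.4 ± 0.278 CPM with AAV-GFP-GA and 16.6 ± 0.332 CPM with AAV-GFP, and Cox17 averaged 13.6 ± 0.725 and 16.8 ± 0.645 CPM (SD, n = 3 each). Their log2 fold changes were -0.31 ± 0.08 and -0.30 ± 0.09, with an adjusted p of 0.742 by edgeR. Cycs, the cytochrome c that carries electrons from complex III to complex IV, averaged 184 ± 5.11 CPM with AAV-GFP-GA and 213 ± 24.8 CPM with AAV-GFP, with -0.21 ± 0.08 and an adjusted p of 0.742. Of 5 components outside the symbol rule, Cycs was the 1 that was lower at an unadjusted p under 0.05, and their median was -0.05.

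Among 16 regulators of mitochondrial biogenesis and transcription 0 passed, 13 were below 0 and the median log2 fold change was -0.06. Ppargc1a, the coactivator PGC-1α, was at 65.9 ± 3.74 CPM with AAV-GFP-GA and 67.5 ± 8.56 CPM with AAV-GFP (SD, n = 3 each). At an unadjusted p under 0.05 Polrmt, the mitochondrial RNA polymerase, was higher and Twnk, the helicase of mitochondrial DNA, was lower. The citric acid cycle list had a median of -0.01 over 19 genes, mitochondrial ribosomal proteins -0.03 over 78, mitochondrial import -0.03 over 23, transport and dynamics -0.004 over 17 and mitochondrial stress -0.01 over 15, each with 0 passed by edgeR. At an unadjusted p under 0.05, 4 mitochondrial ribosomal genes were lower and 1 higher, 1 import gene was higher and 2 stress genes were lower. At that limit 3.45% of all tested genes were lower and 3.19% higher by edgeR. Glycolysis, which makes ATP outside mitochondria, had 14 of 16 genes above 0 and a median of 0.06, with 0 passed and 0 at an unadjusted p under 0.05 by edgeR. Its summed level was 13493, 12519 and 12821 CPM with AAV-GFP-GA, against 12034, 12019 and 13248 CPM with AAV-GFP, so AAV-GFP replicates 1 and 2 were the lowest. With the library set term the glycolysis median was -0.02. Gapdh, its most abundant member, was at 0.09 ± 0.06 as log2 fold change ± SE (edgeR adjusted p = 0.766).

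The positions of the genes bear on how their reads were counted. The subunits lie on 19 chromosomes, and 23 of the 85 share exon sequence with another gene of the GENCODE vM21 annotation. The sources used here do not say whether counting used strand, and such genes may hold reads of their partners. Among those named above, this touches Ndufs1, Ndufs3, Ndufa13, Ndufb11, Ndufa4l2 with Shmt2, Uqcrb, Uqcrc2, Cox6a2, Atp5a1, Atp5f1, Atp5j with Gabpa, and Atp5o. None of Ndufa5, Ndufc1, Ndufa1, Atp5h and Atp5k shares an exon with another gene there.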

How the data were processed

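Gene-level expected counts, the reads per gene that RSEM estimates and that need not be whole, were deposited by the authors for 6 libraries of mouse cortex, in columns that are read counts per the file headers and are not scaled to depth. Bowtie2 2.2.5, RSEM 1.2.12 and the build mm10 are named in the submitters' processing notes. The sources used here give neither annotation nor strand setting. 1 row without a gene name was left out.

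Expected counts were rounded and tested with edgeR 4.0.16 in R 4.3.3 (filterByExpr with a minimum count of 10, TMM scaling, quasi-likelihood test, Benjamini-Hochberg adjustment over 14324 genes, threshold 0.05), a fit of AAV-GFP-GA against AAV-GFP over all 6 libraries. DESeq2 1.42.0, limma 3.58.1 with voom, other scalings and filters, a library set term, a replicate block and fits without each library were alternatives. The edgeR fit was tested on simulated data. CPM used TMM-scaled library sizes, and standard errors come from the log2 fold change and its F statistic. Genes below the filter were not tested.

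The subunits and the other gene lists were chosen with earlier results of these data known. The rule for genes named with values took those past the threshold, in each complex the 2 with the most CPM and the 2 with the smallest p in each direction, isoform pairs, catalytic core subunits and genes below the filter. Of the other lists, genes past the threshold or the 2 with the most CPM could be named, and further ones were chosen after their values were seen. So were the subunits Ndufa1, Ndufa8, Ndufa11, Ndufa13, Ndufb4, Ndufb4c, Ndufb11, Ndufs4, Ndufs5, Ndufs7, Cox7c, Atp5c1, Atp5f1, Atp5j, Atp5o and Atp5s. Depth ranged from 16748748 to 17576002 reads assigned to genes. Transcript lengths and exons are from GENCODE vM21. The values of 1 subunit are not reported here, and it stays in all counts, sums and medians.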

Additional observations from a re-analysis of the deposited data

How the results depend on the processing

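Across DESeq2, limma-voom, 2 other scalings, 2 other filters, the library set term and the replicate block, 0 subunits passed. Leaving out 1 library gave 0 to 2 passed, the 2 without AAV-GFP replicate 3. Subunits lower at an unadjusted p under 0.05 numbered 5 in the main fit, with limma-voom, with both other scalings and with the stricter filter. They numbered 7 with DESeq2, or 8.54% against 2.09% of all genes, and 7 with no filter on low counts, or 8.24% against 2.92%. With the library set term 1 was lower, where 2.81% of all genes were. When 1 library was left out 1 to 18 were lower, where 1.78% to 10.3% of all genes were. Those higher numbered 0 to 4, and the 4, or 4.88%, came without AAV-GFP replicate 3, where 9.5% of all genes were higher. With 1 library left out, which makes separate groups more frequent for all genes, groups that did not overlap numbered 4 to 20 lower, the 20, or 24.4%, without AAV-GFP replicate 3, where 19.1% of all genes were lower, and 19, or 23.2%, without AAV-GFP-GA replicate 1, against 9.72%. They numbered 0 to 9 higher, the 9, or 11.0%, against 19.0% of all genes. With all libraries and upper quartile scaling, 7.32% of subunits did not overlap and were lower, against 5.29% of all genes. With that scaling 1, or 1.22%, was higher, against 6.64%. With 1 library left out, median log2 fold changes ran from -0.10 to -0.010 in complex I and from -0.11 to -0.0093 in complex V, with the lowest medians without AAV-GFP-GA replicate 1. Subunits below 0 numbered 45 to 66 when 1 library was left out. The causes were not tested. Among 37 tested subunits that the naming rule took, 29 of 514 values under alternatives changed sign, in 18 genes, and 1 value passed, that of Ndufa5. Cox7c, outside the rule, also passed without AAV-GFP replicate 3, and its sign turned with the library set term. Same-numbered replicates deviated with correlations of 0.104, -0.121 and 0.0652. With 3 libraries a group, these values cannot decide whether the numbers pair the libraries. With the replicate block 8 subunits, or 9.76%, were lower at an unadjusted p under 0.05, against 2.93% of all genes, 0 passed, and the smallest adjusted p was 0.778. With 3 libraries a group, folds of low genes such as Cox6b2 are bounded only widely, from 0.798-fold to 2.13-fold.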
